A study of Caenorhabditis elegans with 2 samples.

Results

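Pan-neuronal synaptic genes of Caenorhabditis elegans, which nearly every neuron uses for transmission, were examined for peaks of UNC-62, a homeodomain transcription factor of the MEIS and Homothorax type. They were given by name as rgef-1, unc-104, rab-3, snb-1, unc-64, unc-13, unc-10, ric-4, unc-18 and snt-1, and are 10 of the 19973 protein-coding genes annotated on the nuclear chromosomes. Each gene was taken with 5000 bp beyond both of its ends, and every peak whose summit fell in that window was counted. All 10 genes were found in the annotation, and their windows together spanned 192 kb.

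The peaks come from chromatin immunoprecipitation with sequencing (ChIP-seq) on whole second-stage (L2) larvae of both sexes. The single group had 2 biological replicates from separate biosamples of strain OP600. Its genotype is unc119(ed3) with the integrated transgene wgIs600, which holds unc-62 carrying the TY1 EGFP FLAG tag and also unc119. The label for the antibody reads unc-62, and no group without the tagged protein was analysed here. Whole animals were used, so a peak may come from any tissue, and the share of neuronal nuclei behind it is unknown.

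Precursors of synaptic vesicles are made in the cell body and carried along the axon by a kinesin motor. Synaptic vesicles are primed at the active zone and fused with the plasma membrane when calcium enters. Fusion is driven by SNARE proteins on the vesicle and on the plasma membrane, and the same set of proteins serves neurons of every transmitter type. In C. elegans such pan-neuronal genes are switched on together in neurons, and CUT homeodomain factors are known to take part in that. UNC-62 is best known as a partner of the PBC protein CEH-20 and of Hox proteins.

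The pooled list, called by the authors from the alignments of both replicates, held 28005 candidate peaks with a median signal of 9.02. Candidate lists of this kind include background peaks. The 414 strongest of these peaks were the authors' reproducible set, with signals of at least 28.2, and each replicate's own list held 30000 candidates. Signal is the authors' value per peak and has no fixed unit. Its scale differs between lists, with medians of 6.11 in replicate 1 and 4.28 in replicate 2, so ranks are given beside it (rank 1 is the strongest peak of a list). The read depth behind each peak is unknown.

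Reproducible peaks lay in the windows of 3 of the 10 genes, which were snt-1, rgef-1 and unc-104. Across all protein-coding genes 4.94% had a reproducible summit in the same kind of window. The synaptic genes are long, with a median of 6358 bp against 2027 bp for all protein-coding genes, and long genes have wider windows. Of the 8 synaptic genes of 5000 bp or longer, 3 had a reproducible summit, beside 7.24% of all genes of that length. No reproducible summit lay inside any of the 10 genes. A pair of them lay upstream, and the one at snt-1 lay beyond the 3' end.

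**Figure D1:**
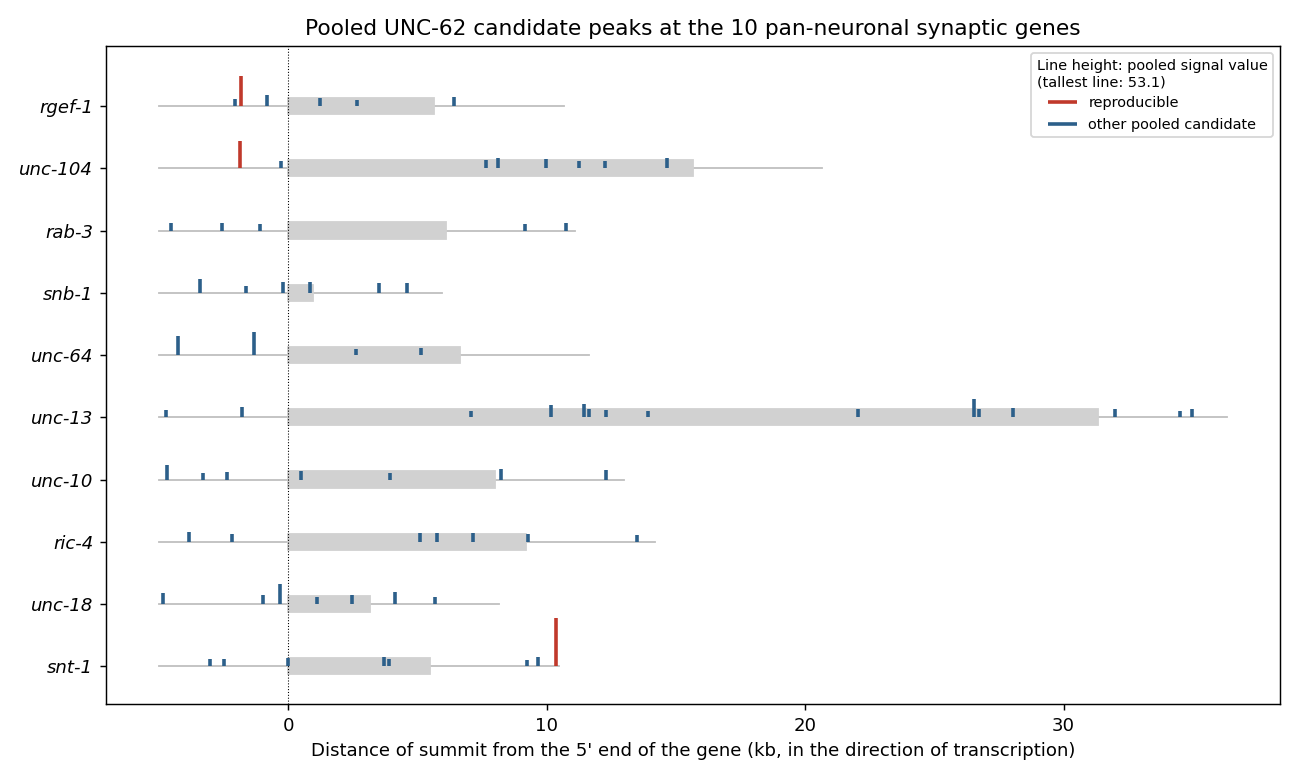
Position of the 73 pooled candidates at each gene, as distance of the summit from the gene's 5' end in kb (x axis). Grey boxes are genes, thin lines the 5 kb on each side, and line height is pooled signal; the 3 reproducible peaks (red) lie outside the genes at rgef-1, unc-104 and snt-1.

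The strongest peak of the group lay near snt-1, which encodes synaptotagmin, the calcium sensor of vesicle fusion (chromosome II 6810963 to 6816433, plus strand). It had a pooled signal of 53.1 and rank 96 (chromosome II 6821153 to 6821488). In replicate 1 the overlapping peak had a signal of 43.1 and rank 55, and in replicate 2 a signal of 13.9 and rank 269. It was the only one of the 73 candidates whose counterparts ranked within the top 414 of both replicates. The summit was intergenic, 4888 bp beyond the 3' end of snt-1 and 10358 bp from its 5' end. On the far side the next protein-coding gene was egl-27, a gene for a chromatin protein of the MTA type, whose 5' end lay 13687 bp away. The snt-1 window was therefore reached only just, and the nearest annotated 5' end was still that of snt-1.

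At the 5' end of snt-1 itself the signal was low. A candidate 37 bp upstream had a signal of 8.66 and rank 15510, and overlapped no candidate of either replicate. The other 6 candidates of the window ranked 9181 to 27217.

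The second reproducible peak lay upstream of rgef-1 (chromosome V 9556027 to 9561674, minus strand), which encodes a guanine nucleotide exchange factor of the RasGRP type and whose promoter is widely used to drive pan-neuronal transgenes. The peak had a signal of 33.1 and rank 291 (chromosome V 9563360 to 9563695), with its summit 1854 bp upstream of the gene. On its other side the 3' end of F25B3.4 lay 1809 bp away. Replicate 1 gave a signal of 12.8 and rank 1304, and replicate 2 a signal of 15.9 and rank 173. The site was thus much higher in the order of replicate 2. A weaker pooled candidate 2054 bp upstream (signal 7.36) overlapped the same replicate peaks and is not a separate site in them. Replicate 2 had no other candidate in the rgef-1 window, and replicate 1 had 7 in all.

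The third lay upstream of unc-104 (chromosome II 6994987 to 7010625, plus strand), which encodes the kinesin-3 motor that carries synaptic vesicle precursors along axons. Its signal was 30.3 and its rank 351 (chromosome II 6992935 to 6993270), with the summit 1884 bp upstream of unc-104 and 1417 bp past the 3' end of C15F1.1. Replicate 1 gave a signal of 24.8 and rank 223, and replicate 2 a signal of 8.09 and rank 2034. The order of the replicates was the reverse of that at rgef-1. Nearer to the gene, a candidate 292 bp upstream had a signal of 8.01 and rank 19229 and no counterpart in either replicate. The other 6 candidates lay inside unc-104 at ranks 6925 to 21788. Of these, 2 had summits within 500 bp of tRNA genes that lie in this stretch of unc-104, and 4 were nearer to the 5' end of sqv-7, the next gene downstream.

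The sequences within 100 bp of these 3 summits are shown because they are the reproducible sites of the group. They are read on the plus strand of WBcel235 (ce11), from chrII:6821221-6821421 for snt-1, chrV:9563428-9563628 for rgef-1 and chrII:6993003-6993203 for unc-104. Capitals mark matches, on either strand, to the motifs named in the next paragraph.
snt-1: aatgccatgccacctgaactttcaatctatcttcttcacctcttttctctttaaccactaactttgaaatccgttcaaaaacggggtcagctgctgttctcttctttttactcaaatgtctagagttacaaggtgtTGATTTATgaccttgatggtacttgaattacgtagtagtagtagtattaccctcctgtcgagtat
rgef-1: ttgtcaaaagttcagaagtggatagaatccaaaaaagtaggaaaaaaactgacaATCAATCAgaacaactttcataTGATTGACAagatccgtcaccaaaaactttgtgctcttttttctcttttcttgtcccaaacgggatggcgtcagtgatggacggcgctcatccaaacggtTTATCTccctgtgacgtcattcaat
unc-104: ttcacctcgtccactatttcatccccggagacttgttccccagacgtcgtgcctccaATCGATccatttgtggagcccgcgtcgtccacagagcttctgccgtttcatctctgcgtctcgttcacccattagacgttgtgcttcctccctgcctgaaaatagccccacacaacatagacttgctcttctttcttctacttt

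Searched motifs were the MEIS core TGACAG, the PBC and Hox type TGATNNAT, the GAGA type GAGAGA, the GATA type AGATAA and the CUT type ATCGAT. None of the 3 sequences holds TGACAG, which most reproducible peaks also lack, as it occurred in 11.6% of the 414. The snt-1 site holds TGATNNAT as TGATTTAT, beginning 36 bp to the right of the summit. The rgef-1 site holds TGATNNAT on the minus strand, printed as ATCAATCA and beginning 46 bp to the left, and AGATAA on the minus strand. It also holds TGATTGACA, a PBC type core run together with a MEIS type core, beginning 24 bp to the left of the summit. This longer motif was added after the sequence had been seen, and TGACA within it is the MEIS core short of its last letter. Counted over the same distance from the summit, it was present in 1 of the 73 candidates of the group, in 6 of the 414 reproducible peaks (1.45%) and in 82 of all 28005 candidates (0.293%). The unc-104 site holds ATCGAT beginning 43 bp to the left of the summit. Among the 414 reproducible peaks TGATNNAT occurred in 18.6%, AGATAA in 8.94% and ATCGAT in 8.45%. A match is a run of letters and does not show that a factor was bound there.

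Widening the set to the 1000 strongest pooled peaks added unc-64, unc-18 and unc-13, so that 6 of the 10 genes had a summit in the window. Of all protein-coding genes 10.98% did. Among genes of 5000 bp or longer, 5 of the 8 synaptic genes did, beside 15.99% of all. The 6 genes held 7 such summits.

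unc-64 encodes syntaxin 1, a SNARE of the plasma membrane (chromosome III 13277258 to 13283887, plus strand), and its window held a pair of them. The nearer, 1331 bp upstream (chromosome III 13275759 to 13276094), had a signal of 25.5 and rank 509, below the 28.2 at which the reproducible set ends. Its counterparts had rank 3711 and signal 9.58 in replicate 1, and rank 304 and signal 13.4 in replicate 2. The farther, 4271 bp upstream (signal 21, rank 838), had rank 514 in replicate 1 and rank 21067 in replicate 2. The replicates thus ordered these sites in opposite ways. The farther summit was slightly closer to the 5' end of cpf-2, at 4104 bp, than to that of unc-64.

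unc-18 encodes the syntaxin-binding protein that is needed for docking and fusion (chromosome X 7682896 to 7686037, plus strand). Its strongest candidate lay 332 bp upstream (chromosome X 7682396 to 7682731, signal 22.3, rank 733). Replicate 1 gave a signal of 8.01 and rank 6891, and replicate 2 a signal of 12.5 and rank 378. It was the only one of the 7 summits that lay in a promoter, taken as 1000 bp upstream to 200 bp downstream of an annotated 5' end. A second candidate of the same promoter, 982 bp upstream, had a signal of 9.93 and rank 10568.

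The sites of unc-64 and unc-18 just below the reproducible set are shown as the strongest of the next genes by signal. Both hold repeated GAGAGA, printed in capitals (TCTCTC is its minus strand form). They are read on the plus strand of WBcel235 from chrIII:13275827-13276027 and chrX:7682464-7682664.
unc-64: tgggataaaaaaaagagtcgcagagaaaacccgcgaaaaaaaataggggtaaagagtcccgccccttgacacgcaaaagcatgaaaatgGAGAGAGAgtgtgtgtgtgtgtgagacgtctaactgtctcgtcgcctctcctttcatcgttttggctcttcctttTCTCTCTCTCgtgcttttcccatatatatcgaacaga
unc-18: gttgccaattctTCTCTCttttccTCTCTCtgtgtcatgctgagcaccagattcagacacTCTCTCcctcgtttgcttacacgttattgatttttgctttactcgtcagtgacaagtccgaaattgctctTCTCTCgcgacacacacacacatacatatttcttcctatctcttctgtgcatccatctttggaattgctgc

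The unc-64 site holds 5 overlapping or separate matches to GAGAGA, and the unc-18 site 4. None of the reproducible sites at snt-1, rgef-1 and unc-104 holds one, although GAGAGA occurred in 50.7% of the 414 reproducible peaks. The unc-64 and unc-18 sites were both among the 414 strongest peaks of replicate 2 and not of replicate 1. The strongest unc-10 site (rank 1911) was searched in the same way and is not printed. It holds no match to any of the searched motifs.

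By each replicate alone, 2 of the 10 genes had a summit of the top 414 of replicate 1 (snt-1 and unc-104), beside 4.82% of all protein-coding genes. In replicate 2 there were 4 (snt-1, rgef-1, unc-64 and unc-18), beside 4.81% of all protein-coding genes. snt-1 was the one gene present in both.

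**Figure D2:**
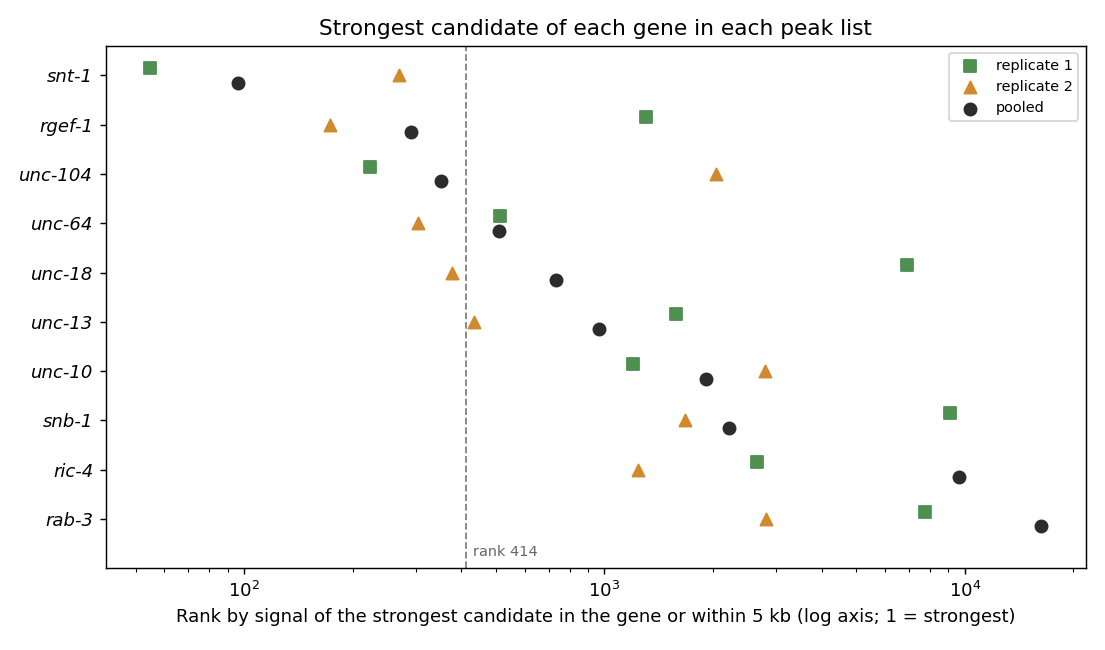
Rank of the strongest candidate of each gene in replicate 1 (squares), replicate 2 (triangles) and the pooled list (circles), on a log axis, with genes ordered by pooled rank; the dashed line is rank 414. The strongest candidate can be a different site in each list, and snt-1 is the only gene left of the line in all 3.

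unc-13 encodes the priming factor that readies syntaxin for fusion. It is the longest of the genes, at 31332 bp (chromosome I 7422785 to 7454116, plus strand), and it had the most pooled candidates, 15. The strongest lay in an intron 26538 bp from the 5' end (signal 19.7, rank 964), with rank 1579 in replicate 1 and rank 855 in replicate 2. Its summit was closer to the 5' end of spe-4, at 5337 bp, than to that of any unc-13 transcript, at 6154 bp or more. The next pair flanked an internal annotated 5' end of a shorter unc-13 transcript. One lay 796 bp past it (signal 14.3, rank 2816), with no counterpart in replicate 1 and rank 435 in replicate 2. The other lay 475 bp before it (signal 13.5, rank 3506), with ranks 18462 and 3535 in replicates 1 and 2. A candidate 1780 bp upstream of the whole gene had a signal of 11.5. The window held 8 candidates in replicate 1 and 25 in replicate 2.

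unc-10 encodes RIM, an active zone scaffold that binds RAB-3 (chromosome X 7272317 to 7280322, minus strand). Its strongest candidate was intergenic, 4708 bp upstream, with a signal of 16 and rank 1911. Replicate 1 ranked it 1202 and replicate 2 ranked it 6693. The nearest candidate to its 5' end, 490 bp inside the gene in an intron, had a signal of 9.06 and no counterpart in either replicate.

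snb-1 encodes synaptobrevin, the SNARE of the vesicle (chromosome V 6655562 to 6656501, minus strand), and at 940 bp is the shortest of the genes. The strongest of its 6 candidates lay 3434 bp upstream (signal 15.2, rank 2217), with ranks 9191 and 3146 in replicates 1 and 2. A promoter candidate 204 bp upstream had a signal of 11.3 and rank 6763. It had no counterpart in replicate 1 and rank 1677 in replicate 2. Another, in the 3' UTR of snb-1 (signal 12.2, rank 5076), lay 233 bp upstream of the 5' end of syx-18, a gene for another syntaxin.

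ric-4 encodes SNAP-25, the other SNARE of the plasma membrane (chromosome V 10261131 to 10270314, minus strand). None of its 7 candidates ranked above 9611 in the pooled list, and their signals ran to 10.2 at most. The strongest lay 3864 bp upstream but nearer to the 5' end of Y22F5A.11, with rank 3235 in replicate 1 and no counterpart in replicate 2. Inside the gene a candidate lay 420 bp before the 5' end of a shorter ric-4 transcript (signal 10.1, rank 10113). The strongest candidate of replicate 2 was another intronic site (rank 1237 there, rank 11287 pooled), which had no counterpart in replicate 1.

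rab-3 encodes the vesicle GTPase of the Rab3 family, and its promoter is also a common pan-neuronal driver (chromosome II 5721767 to 5727853, minus strand). Its highest pooled signal, 8.52 at rank 16250, was the lowest such value among the 10 genes. It was below the median of the pooled list and lay in a 5' UTR of the neighbouring gene C18A3.7. No pooled candidate lay inside rab-3. The pooled candidate nearest to its own 5' end, 1090 bp upstream, had a signal of 7.31 and rank 23510. It had rank 2804 in replicate 2 and no counterpart in replicate 1. Both replicate lists had candidates inside rab-3 that overlapped no pooled candidate. Replicate 1 also had such a candidate closer upstream of the 5' end (rank 14392).

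Across the 10 genes the highest signal in the window therefore ran from 8.52 at rab-3 to 53.1 at snt-1, with a median of 21. The median over the 18951 protein-coding genes with at least 1 candidate was 11.8. The snt-1 value exceeded those of 98.6% of such genes, and the values of rgef-1, unc-104, unc-64 and unc-18 exceeded those of 96.3%, 95.6%, 93.7% and 91.4%. That of ric-4 exceeded 30.3% and that of rab-3 11.9%. A wider window has more chances to hold a strong peak, and these shares are not adjusted for it.

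Candidates of any strength were found at all 10 genes, 73 in the pooled list, 72 in replicate 1 and 73 in replicate 2. Per kb of window the pooled count ran from 0.241 at unc-64 to 0.548 at snb-1, with a median of 0.374, against a median of 0.264 over all protein-coding genes. Density and the strongest signal did not always go together. unc-64 had the lowest density with a peak of rank 509, snb-1 had the highest with no peak above rank 2217, and snt-1 was high in both, at 0.517 per kb. In replicate 1 the median was 0.432 per kb for the 10 genes against 0.278 for all genes, and in replicate 2 it was 0.361 against 0.278.

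**Figure D3:**
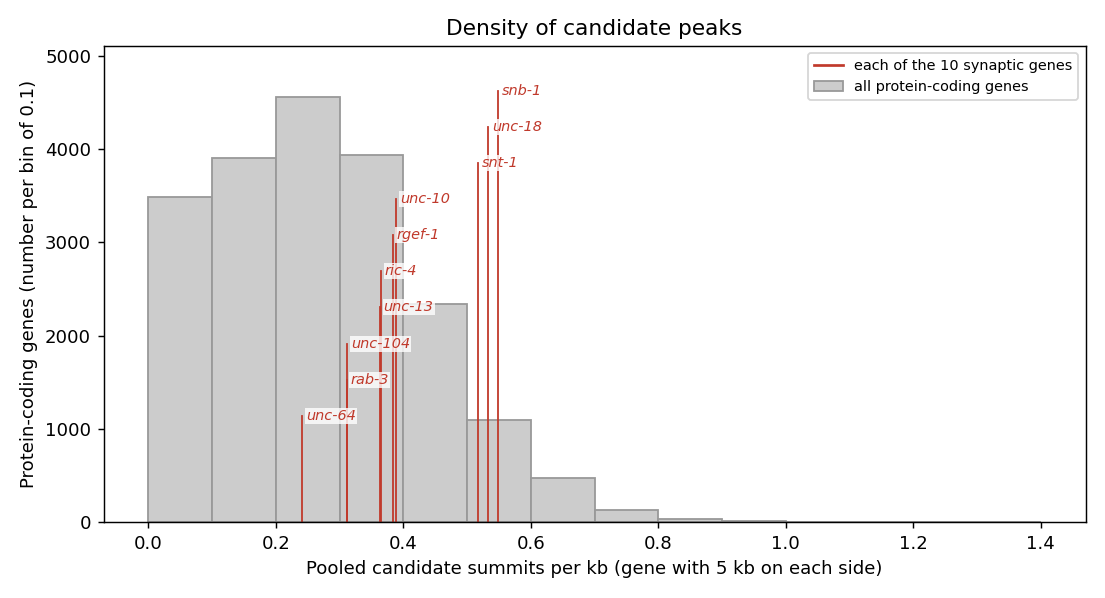
Number of pooled candidate summits per kb in the window of each of the 10 genes (red lines, labelled) over the histogram of all 19973 protein-coding genes (grey). The 10 genes lie between 0.241 and 0.548 per kb, within the range of all genes; the height of a red line has no meaning.

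In its broad parts, the pooled list held these candidates much as an even spread by rank would. Of the 73, 14 ranked within the top 5000 of the 28005 pooled candidates, and 35 fell past the middle rank. At the very top they were more frequent than an even spread, as 7 of the 73 ranked within the top 1000 of the 28005. The spread of the 73 by rank was not tested. By position, 26 lay upstream of the gene, 30 inside it and 17 past its 3' end. The nearest annotated protein-coding 5' end belonged to the synaptic gene itself for 43 and to a neighbour for 30, and for 14 of the 17 past the 3' end it belonged to a neighbour. With genes called by the nearest 5' end within 5000 bp of a reproducible summit, 2 of the 10 qualified (rgef-1 and unc-104), beside 1.78% of all protein-coding genes. Many annotated worm 5' ends are sites of trans-splicing rather than of transcription start, so distances to them are approximate.

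Summits in introns made up 30.1% of the 73 candidates, beside 32.1% of all pooled candidates. Coding exons held 24.7% beside 23.1%, and intergenic sequence 39.7% beside 39.3%. Promoters of any protein-coding gene held 15 of the 73 (20.5%), beside 28.9% of all candidates, and 8 of these 15 were promoters of the synaptic gene itself. The differences in these shares were not tested.

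The replicates overlapped in part. Of the 73 pooled candidates, 24 (32.9%, exact 95% interval 22.3 to 44.9) had a counterpart overlapping by at least 1 bp in both replicates, beside 30.9% of all pooled candidates. A further 27 had one only in replicate 1, 17 only in replicate 2, and 5 in neither. Some neighbouring pooled candidates overlap the same replicate peak, so the 51 with a counterpart in replicate 1 stand for 48 peaks of that replicate, and the 41 in replicate 2 for 37. Of the 24, 7 had ranks within the top 5000 of both replicates. They lay at rgef-1 and unc-13 (2 each, each pair overlapping the same replicate peaks) and at unc-104, unc-64 and snt-1 (1 each). The same count over all pooled candidates is not given here, so the 7 cannot be called few or many. In the opposite direction, 49 of the 72 candidates of replicate 1 and 43 of the 73 of replicate 2 overlapped a pooled candidate.

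**Figure D4:**
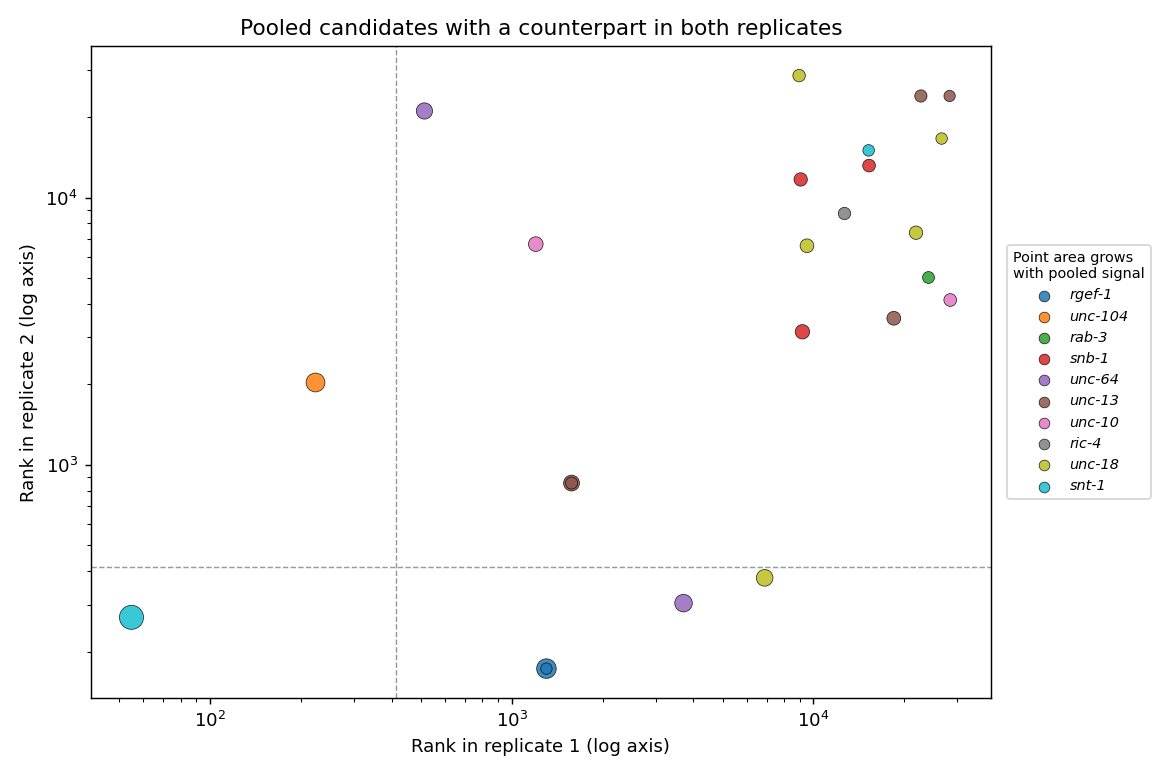
Rank in replicate 1 (x axis) against rank in replicate 2 (y axis), both on log axes, of the 24 pooled candidates with a counterpart in both, coloured by gene. Dashed lines mark rank 414, and the snt-1 peak (ranks 55 and 269) is the only point inside both. The sites of rgef-1, unc-64 and unc-18 below the horizontal line were within the top 414 in replicate 2 only. The reproducible rgef-1 site had rank 1304 in replicate 1.

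Motif shares of the 73 candidates were near those of the pooled list as a whole. Within 100 bp of the summit, TGACAG was present in 5 of 73 (6.85%, exact 95% interval 2.26 to 15.3), beside 7.97% of all 28005 candidates. It was found at rab-3 (rank 23510), ric-4 (ranks 9611 and 16624) and snt-1 (ranks 17222 and 21027), and at none of the 7 candidates within the top 1000. TGATNNAT lay in 19.2% (10.9 to 30.1) beside 16.9%, AGATAA in 11% (4.85 to 20.5) beside 12.0%, and ATCGAT in 8.22% (3.08 to 17) beside 6.30%. GAGAGA lay in 8 of 73 (11%, 4.85 to 20.5) beside 14.6%. The GAGAGA candidates include the sites of unc-64, unc-18 and unc-13 at ranks 509, 838, 733 and 964. Over the same stretch the GC content averaged 35.3% ± 6.48 (SD, 73 candidates), beside 36.4% ± 7.14 (SD, 28005 candidates). The intervals cover counting error only, and these shares were not tested.

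**Figure D5:**
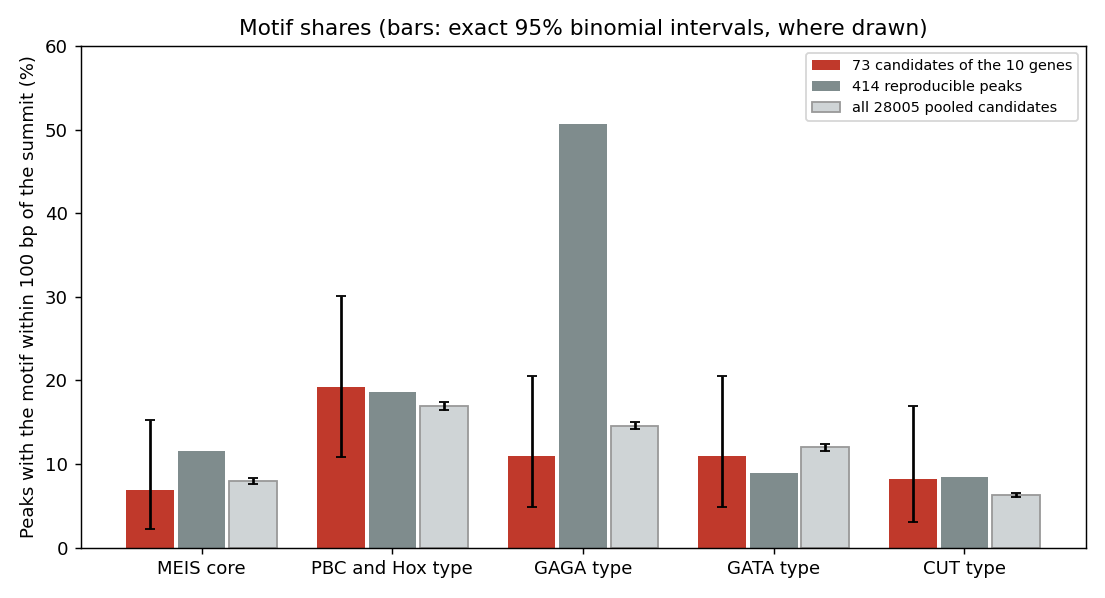
Share of peaks with each motif within 100 bp of the summit, for the candidates of the 10 genes, the reproducible peaks and all pooled candidates; bars with whiskers have exact 95% binomial intervals. For the 10 genes the interval includes the share of all pooled candidates at all 5 motifs. The share of GAGAGA is 11% for the 10 genes and 14.6% for all pooled candidates, both of any rank. It is 50.7% for the reproducible peaks, which are the strongest of the pooled list.

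Other genes linked to the synapse or to neurons, and 7 CUT homeobox genes, were counted in the same windows. The lists held 89 genes, of which 88 were found by name and the CUT gene ceh-44 was not. The median length of these genes was 5532 bp. Reproducible summits lay at 7 of the 88, beside 4.94% of all protein-coding genes and 7.24% of those of 5000 bp or longer. Summits of the top 1000 lay at 20 of the 88, beside 10.98% of all protein-coding genes and 15.99% of the longer ones. The CUT homeobox list gave 1 of the 7 and 1 of the 20. None of the windows of the 88 genes overlapped those of the 10 genes, so no peak was counted in both.

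Of the 19 vesicle fusion and priming genes, 1 had a reproducible summit in its window, snb-2, a synaptobrevin relative. Its peak (signal 41.6, rank 169) lay 445 bp past its 3' end and 274 bp upstream of tomm-20. Of the 12 vesicle recycling and membrane genes, 2 did. dpy-23, a subunit gene of the AP2 adaptor for endocytosis, had a peak 389 bp upstream (signal 59.0, rank 70). It ranked 94 in replicate 1 and 63 in replicate 2. The peak in the window of sng-1, the synaptogyrin gene (signal 46.5, rank 122), lay 4758 bp past its 3' end and 251 bp upstream of epg-7.

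Of the 10 axonal transport genes, 2 had one. unc-14, whose product binds the kinase UNC-51, had 2 reproducible peaks, the stronger 89 bp upstream (signal 31.2, rank 333), with ranks 433 and 158 in replicates 1 and 2. unc-76, a gene of the FEZ family of kinesin adaptors, had one 448 bp upstream (signal 29.1, rank 388), with ranks 189 and 395. Of the 10 dense core vesicle and other pan-neuronal genes, 1 had one, unc-108, which encodes a Rab2 GTPase. The stronger of its 2 reproducible peaks lay in an intron 490 bp before an internal 5' end (signal 33.6, rank 275). Of the 6 CUT homeobox genes found, 1 had one, ceh-38, with a peak in its 5' UTR 30 bp past the 5' end (signal 65.1, rank 52; ranks 109 and 41 in replicates 1 and 2). No reproducible summit lay in the windows of the 13 active zone and calcium channel genes or the 18 genes for making and transporting transmitters. Of the 7 genes with a reproducible summit, 5 had the 5' end nearest to it.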

How the data were processed

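ChIP-seq peaks of UNC-62 from 2 biological replicates of L2 larvae were analysed (library size range 150 to 350 bp, per the labels). The authors deposited narrowPeak lists on build ce11, with candidates per replicate, candidates from both alignments pooled, and the optimal IDR (irreproducible discovery rate) peaks. The signal value of each peak was deposited by the authors and made against a control file, per the accompanying notes. It served to rank the peaks of one list. Read depth, IDR threshold, aligner and peak caller were not given in the sources used here. Lists on build ce10 were left out.

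Gene models came from Ensembl release 115 (WBcel235, the same assembly as ce11) and sequence from the RefSeq copy of WBcel235; all peaks lay within its chromosome lengths. Coordinates count from 1. A summit is the peak's start plus its offset, which for nearly all peaks is the middle of a fixed width of 336 bp (pooled), 350 bp (replicate 1) or 364 bp (replicate 2). Where several replicate peaks overlapped a pooled peak, the strongest was its counterpart. Locations took coding exons first, then UTRs, introns and intergenic sequence. Motif searches covered both strands and 100 bp to each side of the summit.

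With 1 group and no second condition no test between groups was made; counts are set beside the same over all protein-coding genes. The genes and lists were chosen with earlier results of these data known. Named besides the 10 genes are the genes nearest to their candidates and the listed genes with a reproducible summit; genes named as neighbours of single candidates were picked after their values were seen. Alternatives covered the window, the peak set, each replicate alone, the overlap and the motif window. The counting, matching and motif steps were tested on simulated data. Python 3.11.15, pandas 2.3.3, numpy 2.4.6, SciPy 1.17.1 and matplotlib 3.10.9 were used.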

Additional observations from a re-analysis of the deposited data

How the results depend on the processing

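Of 32 alternative values over 6 results, 18 changed little, meaning that a count stayed within 1.5 times the reported count or a share within its 95% interval. Synaptic genes with a reproducible summit numbered 3 in the report, 2 with 2000 bp beyond the gene ends, 0 within the gene bodies, 1 in the reproducible peaks above the median signal of their set and 6 in the 1000 strongest pooled peaks. The number of summits was the same in each case, except 7 in the 1000 strongest. With 2000 bp the gene lost is snt-1. With 1 replicate left out there is no reproducible set, so the 414 strongest peaks of the other replicate stood in for it. The genes and the summits then each numbered 4 without replicate 1 and 2 without replicate 2. Without replicate 1, unc-64 and unc-18 were added and unc-104 was lost. Without replicate 2, rgef-1 was lost.

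The 73 pooled candidates became 47 with 2000 bp, 30 in the gene bodies and 38 where the nearest 5' end was the gene's own and also within 5000 bp, and the replicates alone gave 73 without replicate 1 and 72 without replicate 2. Each replicate list held 30000 candidates and the pooled list 28005. Such totals depend on list length and do not show that the sites were the same. Candidates with a counterpart in both replicates were 24 in the report, 12 with 2000 bp, 6 in the gene bodies and 11 by that nearest 5' end rule, where the windows themselves are smaller, and 13 with summits within 100 bp. The share with GAGAGA was 23.3% within 200 bp of the summit, where the searched stretch is longer. The share with TGACAG, 6.85% in the report, ran from 4.11% to 13.7% under the alternatives. That is within its interval of 2.26 to 15.3, which is wide because it rests on 5 of 73 candidates. With 2 replicates and no read counts, no error could be put on a peak's signal. No paired analysis was possible because there is 1 group.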
